A study of Mus musculus with 37 samples.

Results

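The Lachnospiraceae NK4A136 group is a bacterial genus of the family Lachnospiraceae that reference taxonomies name after a 16S rRNA sequence. Its members here were all rows of the deposited taxonomy whose genus is Lachnospiraceae_NK4A136_group, without regard to their reads. The rule found 240 sequence variants among the 6100 rows of the count table, with 1545870 reads, 9.58% of the bacterial reads. Stool DNA of adolescent C57Bl/6 mice was profiled by amplicon sequencing of the V3–V4 region of the 16S rRNA gene. PAE (prenatal alcohol exposure) mice came from dams that drank a 10% ethanol solution for the first 10 days of pregnancy and water afterwards. Control mice came from dams on water for the whole pregnancy. The 37 libraries came from 21 males (11 control, 10 PAE) and 16 females (7 control, 9 PAE). The exact age and any link of a library to a dam, litter or cage were not used here, so p-values measure only the spread between these libraries.

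Lachnospiraceae are anaerobic Firmicutes of the large intestine that ferment plant fibre and host glycans, and many form butyrate or acetate. The NK4A136 group is common in mouse stool and is usually discussed as a likely butyrate former, although most of its strains have not been cultured. A sequence variant is 1 distinct amplicon sequence. A bacterial genome can carry several 16S rRNA gene copies that differ slightly, so 1 strain can give more than 1 variant, and 1 variant can come from several strains. Variants are called NK1 to NK240 below, in falling order of mean percent of reads over the 37 libraries. Among those the results turn on, NK1 is the table's row 8bc0f81f8365a1cd4b401c1c6594d151, NK2 is 60c211706e6b252bd37d4ac02ce8812a, NK4 is 11b4cca5a2e1eab13cc1db3716e0147b and NK7 is d427f1029e015b4a4f73b5e145daf912. The sequences behind these identifiers were not used here.

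Libraries held 102672 to 1813237 reads (median 293111), and are cited by the number in their labels. Numbers 1 to 10 and 30 to 37 are controls and 11 to 19 and 20 to 29 are PAE, so no run of label numbers holds both exposures, and exposure and anything that goes with the numbering cannot be told apart. Muribaculaceae (15.7% to 48.0% of reads) and Lachnospiraceae (12.9% to 34.4%) were present in every library, as is usual for mouse stool. Before any comparison, 9 libraries stood apart: at a common depth of 102535 reads, control females 3 and 10, PAE males 20 to 24 and PAE females 27 and 28 had 186 to 277 variants of other genera, against 358 to 646 in the other 28. The limit of 300 variants was chosen after the data were seen. The NK4A136 group took 0.0107% to 1.07% of reads in those 9 libraries and 4.72% to 23.9% in the other 28, while the family as a whole took 13.1% to 22.9% and 12.9% to 34.4%. Whatever sets those libraries apart was not tested, and results are given with and without them.

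Most of the 240 variants were rare and local. No variant had reads in more than 31 of 37 libraries, the number reached by both NK2 and NK9. The 162 variants with reads in a single library together made 0.297% of the reads of the genus. Only 44 variants had reads in 7 or more libraries, and these made 92.7% of its reads. By label run, 181 variants occurred in 1 run and 32 in all 4 runs, the latter with 84.8% of the reads. The 12 leading variants made 62.5% of the mean share of the genus and the leading 50 made 98.9%. The 8 rows whose species field reads Trichinella_pseudospiralis, the name of a roundworm, held 44 reads in all, and the row named Blautia_coccoides held 2. Species names were otherwise of little use: 115 variants were named uncultured_bacterium and 86 had no species name.

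The genus made 12.2% ± 6.16 of reads in control males (SD, n = 11), 4.51% ± 4.93 in PAE males (n = 10), 9.0% ± 7.14 in control females (n = 7) and 8.77% ± 7.36 in PAE females (n = 9). The ranges of all 4 groups overlapped, from 4.72% to 23.1% in control males and from 0.0107% to 12.5% in PAE males. The run means were 9.32% ± 6.46 (libraries 1 to 10), 11.1% ± 5.41 (11 to 19), 2.43% ± 4.06 (20 to 29) and 12.9% ± 6.48 (30 to 37). Within run 20 to 29 the libraries lay far apart: PAE male 25 had 7.25%, PAE females 26 and 29 had 11.1% and 5.68%, and the other 7 had 0.0107% to 0.117%. Without the 9 libraries, the group means were 8.97% ± 2.24 in PAE males (n = 5), 12.3% ± 5.40 in control females (n = 5) and 11.3% ± 6.27 in PAE females (n = 7). Percentages are shares of reads, so fewer of these bacteria and more of the others cannot be told apart.

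**Figure D1:**
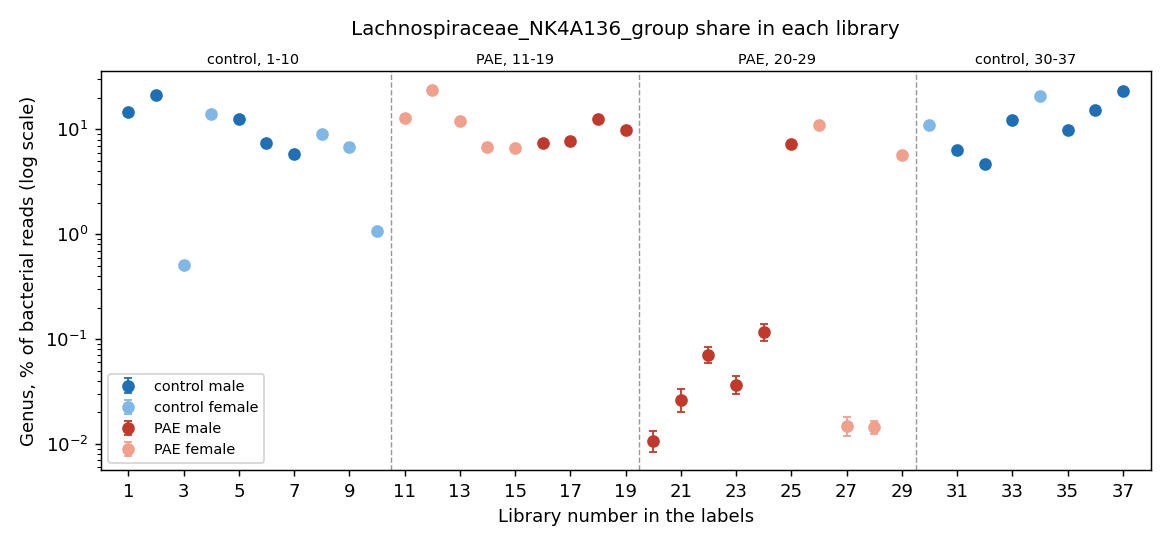
Percent of bacterial reads in the NK4A136 group on a log axis, against the label number of each library. Points are libraries coloured by group, bars are 95% Clopper-Pearson intervals that cover counting error only, and dashed lines part the label runs. The 7 lowest libraries, at 0.0107% to 0.117%, all lie in run 20 to 29, and control females 3 and 10 lie at 0.511% and 1.07%.

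Tested as 1 row among 112 genera, the NK4A136 group passed the threshold in none of the 5 contrasts (edgeR quasi-likelihood test, Benjamini-Hochberg adjusted p under 0.05). The log2 difference of PAE from control was -1.68 in males (SE 0.86, edgeR adjusted p = 0.202) and -0.50 in females (SE 0.96, edgeR adjusted p = 0.960). The difference between the sexes was -1.18 (SE 1.29, edgeR adjusted p = 0.645). The female difference was 0.093 without control female 34, the deepest library. Libraries 20 to 29 differed from 11 to 19 by -1.92 (SE 0.88, edgeR adjusted p = 0.0880), and controls 30 to 37 from 1 to 10 by 0.97 (SE 0.92, edgeR adjusted p = 0.511). The method decided 2 of these calls: on centred log-ratios, limma gave -3.51 in males (adjusted p = 0.0201) and -4.37 between the PAE runs (adjusted p = 0.000142). Leaving out PAE male 25 alone moved the PAE run difference to -3.94 (edgeR adjusted p = 9.56e-05). Without the 9 libraries the PAE run difference was -0.27, with PAE male 25 as the only male left in run 20 to 29. The male difference was then -0.69 (edgeR adjusted p = 0.709).

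No variant was among the 5 leaders of all 4 runs. In libraries 1 to 10 the share was carried by NK4 (0.865% of reads), NK2 (0.833%), NK1 (0.792%), NK9 (0.650%) and NK10 (0.622%), together 40.3% of the mean share of the genus. These means hid unlike libraries. NK4 and NK2 reached 7.33% and 7.35% in control male 2, and NK1 reached 7.68% in control female 4, while NK9 was spread over 9 of the 10 libraries. In libraries 11 to 19, NK2 (1.75%), NK1 (1.63%), NK8 (1.16%), NK17 (0.756%) and NK12 (0.401%) made 51.3%. NK17 came almost whole from PAE females 11 (2.11%) and 12 (4.69%): those hold 12347 of its 12391 reads. NK12 was the even one of the 5, above 0.1% in 7 of the 9 libraries.

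In libraries 20 to 29, NK15 (0.470%), NK22 (0.344%), NK3 (0.252%), NK10 (0.212%) and NK6 (0.180%) made 60.0% of the mean share. All 5 stood above 0.1% in the same 3 libraries, 25, 26 and 29, and in no other of the run. NK15 was at 1.70%, 1.84% and 1.16% there. In controls 30 to 37, NK3 (1.55%), NK1 (1.27%), NK6 (1.12%), NK5 (1.10%) and NK7 (1.06%) made 47.1%. NK3 was highest in control female 30 (6.31%), followed by control males 31 (3.17%) and 32 (1.88%), and NK6 followed it at 4.24%, 2.28% and 1.37%. NK1, NK2, NK4, NK5 and NK7 instead stood side by side in control female 34 (3.16% to 3.63%), control male 36 (1.92% to 2.49%) and control male 37 (2.96% to 3.64%).

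By exposure and sex the leaders were NK4, NK2, NK5, NK9 and NK3 in control males and NK8, NK2, NK16, NK23 and NK5 in PAE males. NK8 made 12.9% of the mean genus share in PAE males and was highest in library 19 (3.36%). NK16 was among the 5 there through library 18 alone (2.89%), the single PAE male library with any of its reads. Control females were led by NK1 (1.62% ± 3.0, reads in 2 of 7 libraries) and NK7 (1.09% ± 1.91, reads in 3 of 7). PAE females were led by NK1 (1.61% ± 3.48, reads in 3 of 9) and NK2 (1.16% ± 2.45, reads in 8 of 9), with the highest values of both in library 12 (9.99% and 6.98%). NK1 was thus nearly equal in the female means, with SDs larger than the means and medians of 0.

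**Figure D2:**
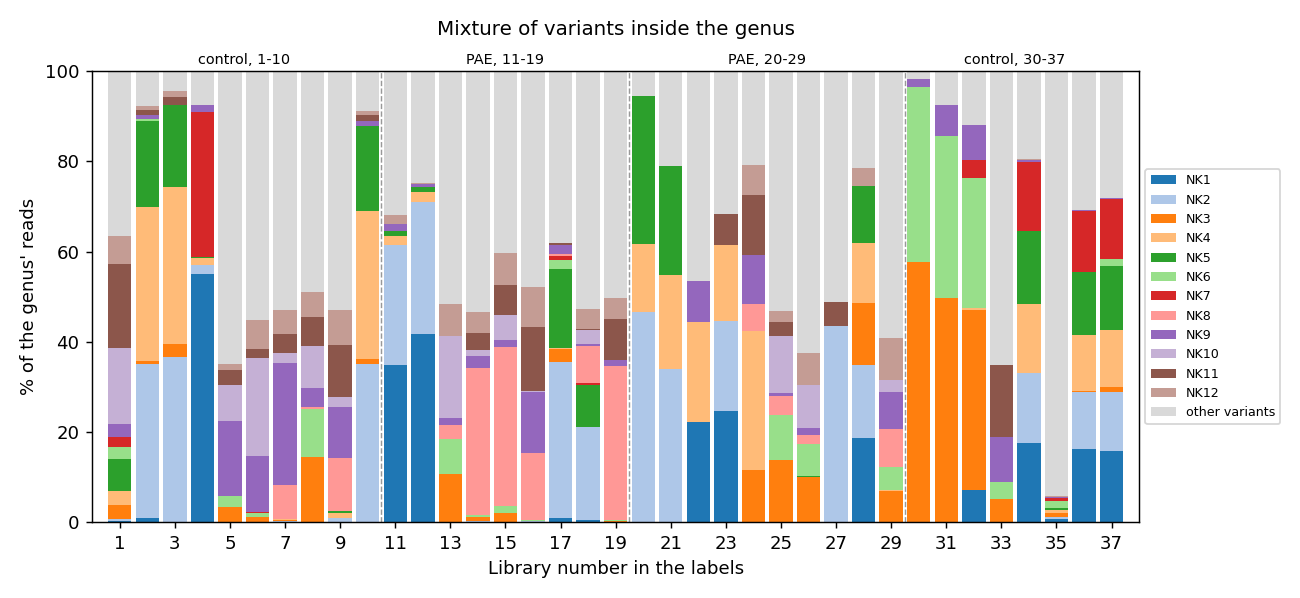
Percent of the reads of the NK4A136 group held by each of its 12 leading variants (colours) and by its other variants (grey), in each library by label number. Libraries 20 to 24, 27 and 28 rest on 62 to 181 reads each. NK3 and NK6 fill most of libraries 30 to 32, NK8 is largest in 14, 15, 16 and 19, and grey makes nearly all of library 35.

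At a common depth of 102655 reads, the expected number of members with a read was 32.5 ± 11.1 in control males, 17.3 ± 12.7 in PAE males, 20.4 ± 11.1 in control females and 22.7 ± 11.2 in PAE females. By run it was 28.3, 26.4, 13.9 and 27.2. Without the 9 libraries of low richness, which include no control male, the number was 28.2 ± 7.72 in PAE males (n = 5). It was then 24.4 ± 10.7 in control females (n = 5) and 27.3 ± 7.36 in PAE females (n = 7). In run 20 to 29, libraries 25, 26 and 29 had 36.2, 33.3 and 25.1. The low mean of that run came from the other 7, which held 62 to 181 genus reads each. The effective number of variants (inverse Simpson index), which counts evenly held variants, averaged 7.71, 6.39, 6.49 and 5.89 in the runs, and these means differed by less than the SDs of 2.03 to 3.98. A single variant made 12.2% of the genus in control female 9 (NK14) and 57.7% in control female 30 (NK3). In control male 35 the genus was led by NK13 (23%) and NK18 (22%). NK13 and NK14 are outside the rule for named variants and were named after their values were seen.

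For the tests by variant, 38 members passed the filter of 5 reads in 7 libraries, with 92.6% of the reads of the genus, and the other 202 were not tested. In males, 1 of the 38 was called between PAE and control, where 12.1% of all 553 variants tested were called. It was NK4, which ran from 0 to 7.33% in control males (median 0.0200%) and from 0 to 0.0360% in PAE males (median 0.0059%). The high control males were 2 (7.33%), 37 (2.96%), 36 (1.92%) and 1 (0.463%), and the other 7 were at or below 0.0469%, so most of both groups overlapped. The mean was 1.16% ± 2.27 against 0.0096% ± 0.0109, a 120-fold difference (log2 -7.09, SE 2.03, edgeR adjusted p = 0.0119). NK4 stayed called whichever library was left out (highest edgeR adjusted p = 0.0236), and the count of members rose to 2 without PAE male 25 or control male 33 (16.1% and 11.5% of all variants called) and to 3 without PAE male 18 or control male 7 (13.2% and 12.1%). With the label run as a random block, limma called no member in males or in females, where 0.0% of all variants were called in both (0 members at an unadjusted p under 0.05). NK4 had a limma adjusted p of 0.866 there. Limma without the block did not call NK4 in males either, so the change of method and the block cannot be told apart. Without the 9 libraries no member of 37 tested was called in males, where 0.19% of all variants were called (edgeR, 2 members at an unadjusted p under 0.05; NK4 edgeR adjusted p = 0.243). The median log2 difference of the 38 members was -1.26, against -0.71 for all variants tested, and 26 of the 38 were below 0. Of the leading variants, NK8 was at 0.582% ± 1.07 in PAE males and 0.0400% ± 0.131 in control males, which did not pass (edgeR adjusted p = 0.343).

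In females, 4 of the 38 members were called, where 12.3% of all variants were called. NK7 had no read in 9 PAE females, while control females held it at 4.49% in library 4, 3.17% in 34, 0.0063% in 8 and 0 in the other 4. The control mean was 15964-fold above a limit of 3 reads over the pooled reads of the PAE females (edgeR adjusted p = 0.0158). NK24 was at 2.88% in control female 34 and at no more than 0.0036% in any other female library (edgeR adjusted p = 0.0192); without library 34 its log2 difference went from -10.47 to -1.25 and the call was lost. NK23 was at 0.212% and 0.0658% in control females 4 and 34 and had no read in the other 5 or in PAE females (edgeR adjusted p = 0.0302). NK29 went the other way: PAE females 13, 14, 26 and 29 held 0.0162% to 0.210%, and no control female had a read (edgeR adjusted p = 0.0378, up to 0.0869 when 1 of 8 libraries was left out). The 3 that were lower had their highest control values in libraries 4 and 34, and the count fell from 4 to 1 without library 34 (3.51% of all variants called). NK24 and NK29 then lost their calls, and NK23, with reads in 7 libraries including 34, fell under the filter and was not tested. None of the 4 was called with the label run as a random block (limma adjusted p = 0.802 for NK7 and 0.992 for the others). Limma without the block called none of the 4 either. None of the 4 was called without the 9 libraries (edgeR adjusted p = 0.0657 to 0.097, with 0.0% of all variants called and 8 members at an unadjusted p under 0.05). No member was called in a fit of the females alone, where 1.37% of variants were called (edgeR, 1 of 17 members tested at an unadjusted p under 0.05).

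The difference of the exposure effect between the sexes was called for 0 of 38 members, where 0.0% of all variants were called (edgeR, 9 members at an unadjusted p under 0.05). DESeq2 called 7 members for this difference (6.33% of all variants), edgeR with TMMwsp scaling 2 (2.35%) and limma on centred log-ratios 0 (0.0%). A call in 1 sex alone therefore does not show that the sexes differ. The exposure calls also moved with the run that stood for each exposure. With PAE libraries 11 to 19 alone, no member was called in males or females, where 0.0% of all variants were called in both (edgeR, 3 and 7 of 35 members at an unadjusted p under 0.05). With 20 to 29 alone, 7 of 30 members were lower in males, where 22.6% of all variants were called. In females none was called there, against 2.99% of all variants (edgeR, 11 at an unadjusted p under 0.05). Against controls 30 to 37 alone, 10 of 30 members were called in males, 5 higher and 5 lower, where 29% of all variants were called. Against controls 1 to 10 alone none was called, where 1.22% were (edgeR, 3 of 34 at an unadjusted p under 0.05). In females 1 of 34 members was called against controls 1 to 10 alone (NK7, lower, with 1.42% of all variants called). Against controls 30 to 37 alone 2 of 30 were called (NK7 and NK24, lower, with 9.74% of all variants called). That run held only 2 control females, 30 and 34.

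**Figure D3:**
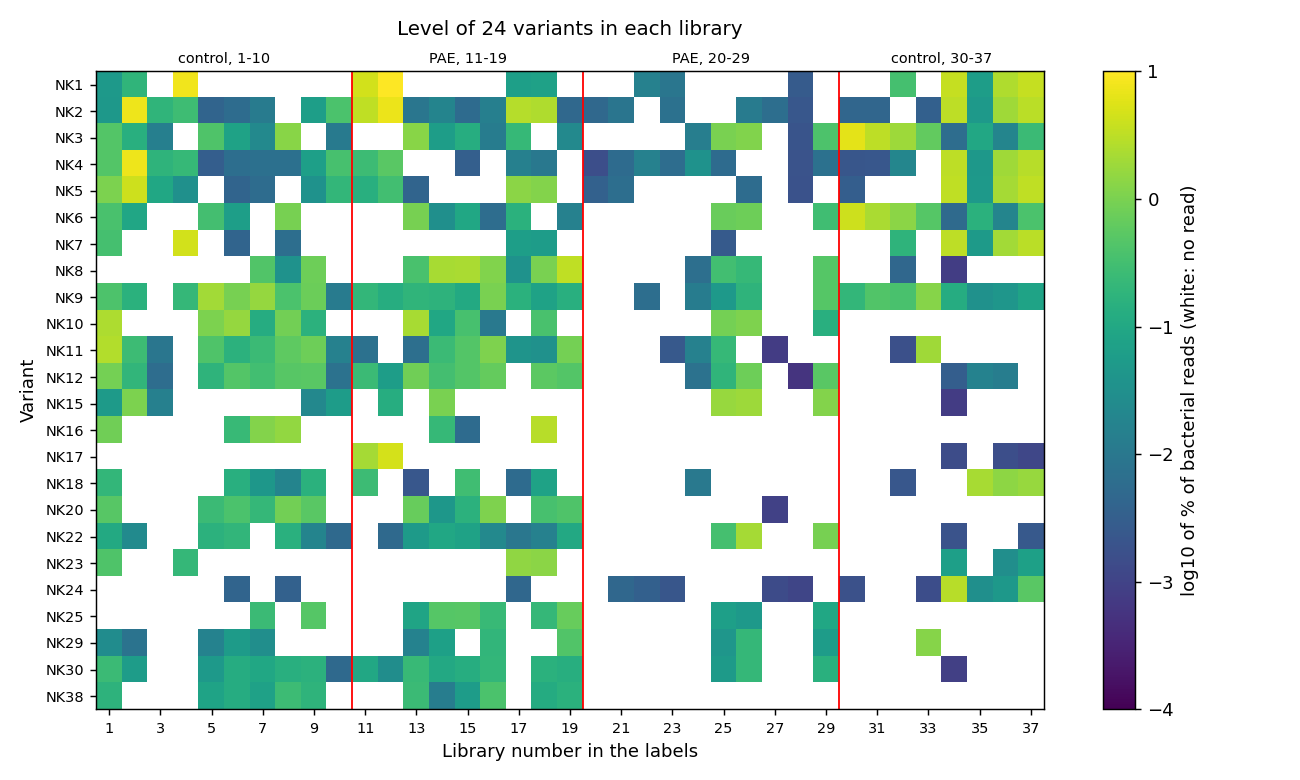
Percent of bacterial reads of the 24 named variants (vertical) in each library (horizontal, by label number), coloured on a log10 scale with white for no read. Red lines part the label runs. NK16, NK20 and NK38 are blank in controls 30 to 37 and nearly so in libraries 20 to 29, while NK2 and NK4 have reads in 31 and 30 libraries at levels from a few reads to over 7%.

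Between the PAE runs, 7 of the 38 members were called, all lower in libraries 20 to 29 than in 11 to 19, where 22.4% of all variants were called in either direction and 13.4% lower. NK2 was above 2% in libraries 11 (3.40%), 12 (6.98%), 17 (2.72%) and 18 (2.56%), at 0.0048% to 0.0182% in the other 5 of that run, and at no more than 0.0121% in run 20 to 29. The means were 1.75% ± 2.42 and 0.0042% ± 0.0044, a 417-fold difference (edgeR adjusted p = 0.0090). NK20 was present in 6 of 9 libraries of run 11 to 19 (mean over the 9, 0.305% ± 0.379) and in 1 of 10 of run 20 to 29 with 6 reads (edgeR adjusted p = 0.0045). NK38 was in those 6 libraries (mean over the 9, 0.109% ± 0.134) and without a read in the other run (edgeR adjusted p = 0.0034). Its mean was 1866-fold above a limit of 3 reads over the pooled reads of that other run. NK16, with a mean 5945-fold above the same limit (edgeR adjusted p = 0.0146), stood at 2.89% in library 18, 0.228% in 14 and 0.0055% in 15, and at 0 in the other 6. NK5 (190-fold), NK11 (12.8-fold) and NK18 (66.8-fold) completed the 7, and each lost its call in 4 to 7 of the 37 fits without 1 library. The count was 4 without PAE male 18, PAE female 26 or PAE female 28, where 17.7%, 19% and 15.8% of all variants were called. Without PAE male 25 it was 19 of 36, where 52.5% of all variants were called. Without the 9 libraries, none of 37 members tested was called between these runs, where 2.85% of all variants were (edgeR, 5 at an unadjusted p under 0.05).

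Between the control runs, 7 of the 38 members were called, where 29.5% of all variants were called. NK10, NK16, NK20, NK25 and NK38 had no read in the 8 libraries 30 to 37. A limit of 3 reads over the pooled reads of that run is 5.07e-05%. In libraries 1 to 10, NK10 had reads in 6 libraries, from 0.126% to 2.48%, with a mean 12259-fold above that limit (edgeR adjusted p = 0.0108). NK20 was in 6 libraries at 0.212% to 0.867%, with a mean 5380-fold above that limit (edgeR adjusted p = 0.0040). NK16 was in 4 libraries at 0.239% to 1.51% (edgeR adjusted p = 0.0162), and NK25 only in libraries 7 and 9, at 0.258% and 0.486% (edgeR adjusted p = 0.0369). The call of NK25 was lost in 12 of 37 fits without 1 library, with a log2 difference from -11.20 to -5.24 and an edgeR adjusted p of up to 0.9999. NK30 was at 0.0887% ± 0.0824 over all 10 libraries of run 1 to 10, with reads in 8 of them. In run 30 to 37 it had 16 reads, all in library 34 (edgeR adjusted p = 0.0162). NK24 was the 1 higher in libraries 30 to 37, through 34 (2.88%) and 37 (0.537%). Leaving out control female 34 reduced the count from 7 to 2 (NK16 and NK20), where 15% of all variants were called. Without the 9 libraries, 9 of 37 members were called, among them all 7 (against 32.4% of all variants). NK16, NK20 and NK38, present in libraries 1 to 10 and 11 to 19 and nearly absent from the others, were called in both run contrasts.

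The mixture inside the genus was compared by the percent of genus reads that a pair of libraries holds in common, the sum over variants of the smaller of both shares. In the 30 libraries with 500 or more genus reads, the median over 435 pairs was 12.8%, so an ordinary pair had little in common. It was 15.8% within a run, 11.6% across runs of the same exposure and 12.6% across exposures, while the rest of each library's bacteria had medians of 52.3%, 25% and 36.6%. Some pairs were far above. Control male 2 shared 95.8% with control female 10 and 92.7% with control female 3, NK2 and NK4 each making 33% to 36.7% of the genus in all 3, although the genus took 21.5%, 1.07% and 0.511% of their reads. Other close pairs were 36 and 37 (90.4%), 30 and 31 (88.2%), 11 and 12 (86.2%) and 26 and 29 (77.2%). The nearest library lay in the same run for 23 of 30 libraries, in the same exposure for 23, in the same sex for 17, and within 2 label numbers for 14. By the rest of the bacteria it also lay in the same run for 23 of 30. Of the 435 pairs, 112 lay within a run. Cage and litter were not used here, so their part in these likenesses was not tested.

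**Figure D4:**
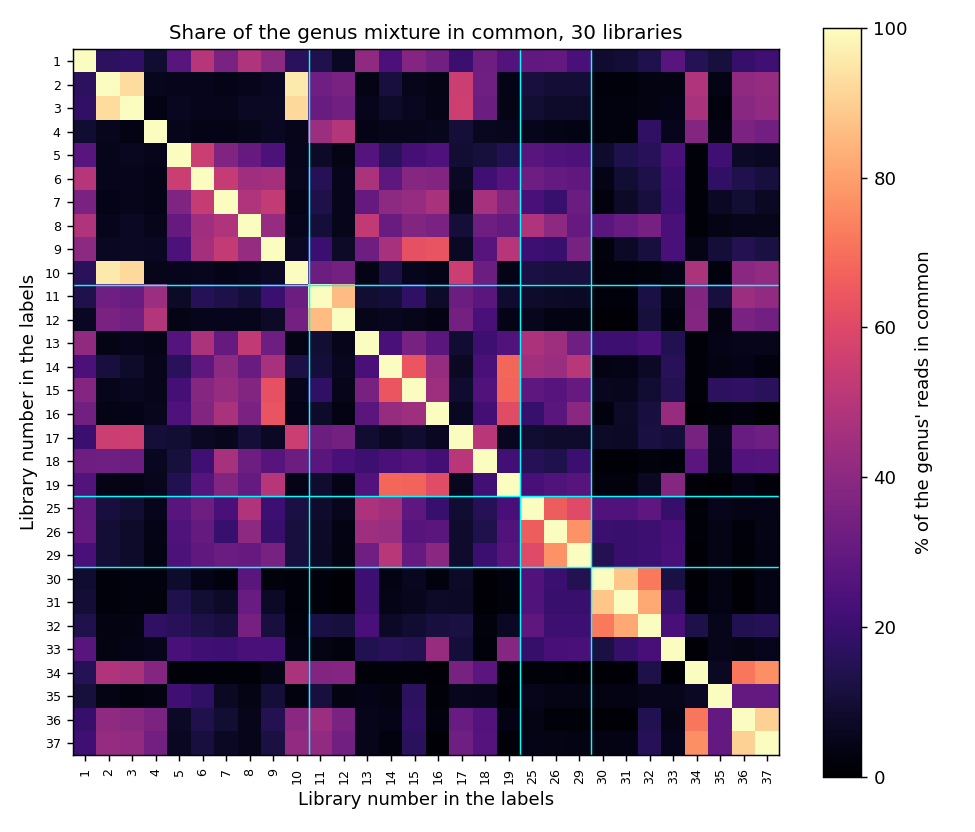
Percent of genus reads held in common by each pair of the 30 libraries with 500 or more genus reads, ordered by label number on both axes. Lines part the label runs. Bright blocks off the diagonal join libraries 2, 3 and 10 (92.5% to 95.8%), 11 and 12, 30 to 32, and 34, 36 and 37.

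Some variants kept a near-fixed ratio where both were well measured. Of 391 pairs with both variants at 50 or more reads in at least 5 libraries, 10 had an SD of the log2 ratio under 0.5 over those libraries, against a median SD of 2.14. These pairs were picked after their values were seen, and libraries with 1 of the variants under 50 reads do not enter the ratio. NK20 was 2.92 times NK38 (median, range 2.61 to 3.17) in 11 libraries of 2 runs, while NK20 itself ran from 0.163% to 1.09%, and the library left out (14, with 91 and 28 reads) had a like ratio. The other pairs had libraries against the ratio. NK3 was 1.37 times NK6 in 21 libraries of all 4 runs, from 0.63 in library 35 to 1.97 in library 14, but library 7 had 54 reads of NK3 and none of NK6. Libraries 3, 10 and 28 likewise had 25, 21 and 25 reads of NK3 and none of NK6. NK12 was 3.55 times NK30 in 18 libraries, down to 2.15 in library 12, but libraries 35 and 36 had 86 and 84 reads of NK12 and none of NK30. NK19 was 2.36 times NK31 in 8 libraries, but libraries 1, 6 and 7 had 66, 208 and 104 reads of NK19 and none of NK31. NK30 was 1.10 times NK34 in 17 libraries, but library 12 had 55 reads of NK30 alone and library 35 had 81 of NK34 alone. NK15 was 3.52 times NK37 in 6 libraries, but libraries 1 and 9 had 105 and 50 reads of NK15 and none of NK37. Calls for NK20 and NK38 in the same contrast are therefore not separate evidence. Whether such pairs are gene copies of 1 genome was not tested.

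**Figure D5:**
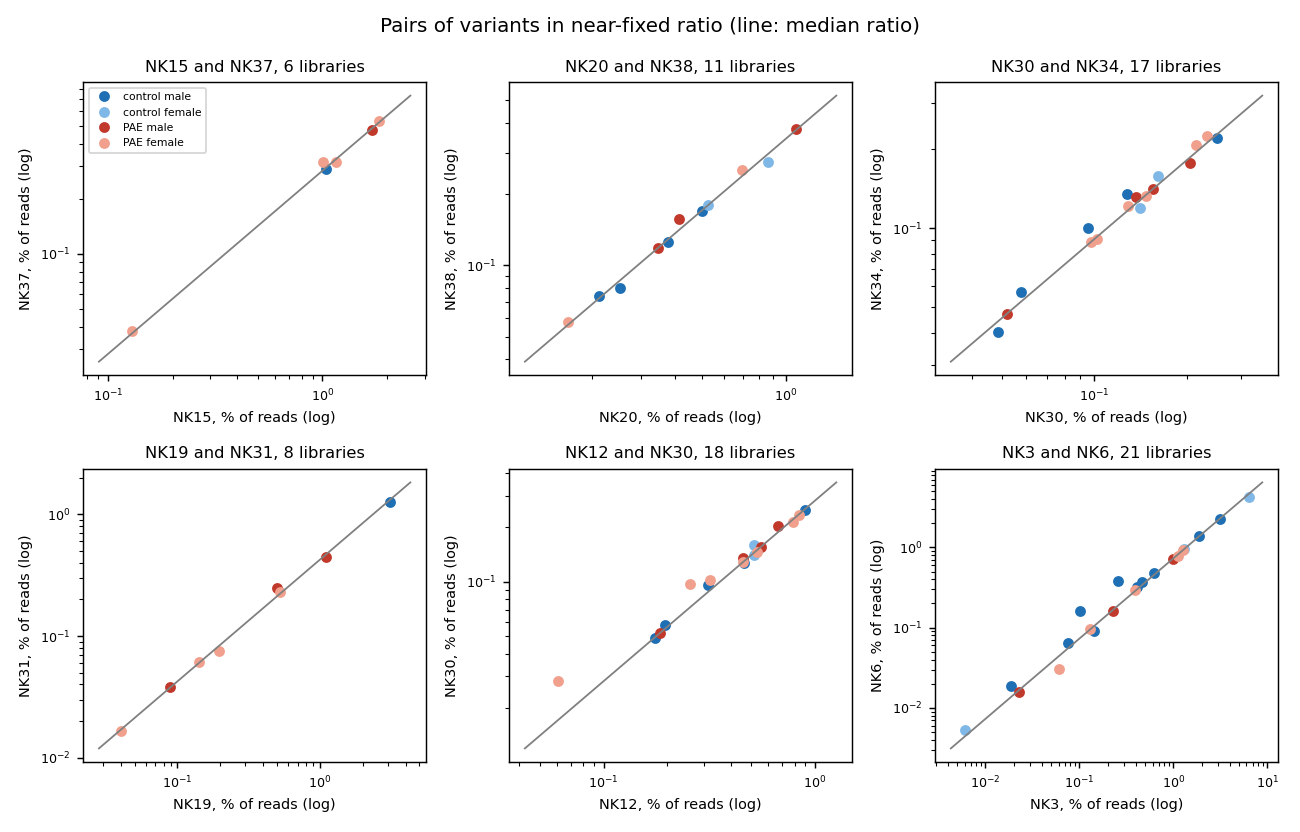
Percent of bacterial reads of the second variant against the first for 6 pairs of near-fixed ratio, on log axes. Points are libraries with 50 or more reads of both, coloured by group, lines are the median ratio, and libraries with 1 variant of the pair below 50 reads are not drawn. Points of all 4 groups lie along the lines of NK30 and NK34 and of NK3 and NK6.

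In the 7 PAE libraries of lowest share (20 to 24, 27 and 28), the genus had 62 to 181 reads each and 775 in all, over 20 variants. NK1, NK2, NK4 and NK5 made 432 of them (55.7%), and 19 of the 20 variants also had reads in the other 28 libraries. NK2 led in libraries 20 (34 of 73 reads), 21 (21 of 62) and 27 (41 of 94). NK67, named after its values were seen, had 24, 14 and 15 reads in libraries 22, 23 and 27, out of 203010, 277135 and 639493 bacterial reads. NK67 made 16.7%, 13.9% and 16.0% of the genus reads in these 3 libraries. It also had reads among the other 28 libraries, at up to 0.0111% of reads. With so few genus reads a variant at 0 may still be present, and the source of these reads was not tested.

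Among related bacteria, 19 other Lachnospiraceae genera were tested. In males 4 of them rose and none fell, where 11.6% of all genera were called: Blautia, an acetate former (0.272% in control and 6.66% in PAE males, log2 5.5, edgeR adjusted p = 0.0010), Hungatella, Lachnoclostridium and Robinsoniella. The median log2 difference of the 19 was -1.07, against -0.28 for all genera. In females none of the 19 was called, where 2.68% of all genera were (edgeR). The difference between the sexes was called for Lachnoclostridium (log2 difference 3.57, edgeR adjusted p = 0.0498) and for Robinsoniella, listed at 0 in every control male (edgeR adjusted p = 0.0368), where 3.57% of all genera were called. Lachnoclostridium was also lower in controls 30 to 37 than in 1 to 10 (0.309% and 2.43%, edgeR adjusted p = 0.0333), where 12.5% of all genera were called. Between the PAE runs, 5 were higher in 20 to 29 (those 4 and Anaerostipes) and 3 lower, among them Roseburia (log2 -3.94, edgeR adjusted p = 0.0178). There, 34.8% of all genera were called. Of 19 listed butyrate formers 8 were tested. Between the PAE runs, 2 of these 8 were higher in 20 to 29 and 1, Roseburia, was lower. The higher ones were Anaerostipes (log2 14.50, edgeR adjusted p = 0.0004) and Flavonifractor (log2 12.72, edgeR adjusted p = 0.0015). In males Flavonifractor was higher (log2 12.45, edgeR adjusted p = 0.0030) and Intestinimonas lower (log2 -9.02, edgeR adjusted p = 0.0007), and in females Intestinimonas was lower (edgeR adjusted p = 0.0098). Of the males' calls, Robinsoniella and Flavonifractor had reads in none of the other 28 libraries, and without the 9 libraries 1 of 100 genera (1.0%) was called in males. Intestinimonas was near absent from both PAE runs: 0.00018% in 11 to 19, which holds none of the 9, and 0.0% in 20 to 29. The control runs 1 to 10 and 30 to 37 held 0.0532% and 0.0492% of it.

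The genera whose percent followed that of the NK4A136 group most closely over the 37 libraries, by Spearman rank correlation, were unclassified Erysipelotrichaceae, Family_XIII_UCG-001, [Eubacterium]_brachy_group and unclassified Peptococcaceae. Since the 9 libraries form a cluster of their own, the correlation is given within the other 28: 0.71, 0.49, 0.35 and 0.31. The genera that ran most against it over all 37 libraries were Robinsoniella, Lachnoclostridium, Nitrosomonas and Flavonifractor. Lachnoclostridium had -0.40 and Nitrosomonas -0.36 within the 28, where the other 2 had no reads. Within the 9 libraries, Robinsoniella had 0.67 and Lachnoclostridium 0.50, while Nitrosomonas had -0.20 and Flavonifractor -0.23. All are shares of the same libraries, so a rise in one lowers the others, and the values are descriptions of 111 genera compared.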

How the data were processed

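The authors deposited raw counts, not normalized, of the reads of every variant in every library, and a second table that names the taxa. Per the labels, amplicons were sequenced in paired-end mode on an Illumina NovaSeq with 2 × 250 cycles. Per the submitters' processing notes, cutadapt, Bowtie2 and the mouse build GRCm39 were used, with no roles or versions. Which denoiser, classifier and reference were used is not given in the sources used here; these set which sequences count as 1 variant and which rows carry the genus name.

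Rows without taxonomy (2), non-bacterial rows (3) and chloroplast or mitochondrial rows (10) were removed; 6085 rows with 99.99% of the 16140229 reads remained. Groups come from the labels; in 2 control male libraries title and description exchange library names, which leaves the group unchanged. The count table's column numbers name libraries. Variants with 5 reads or more in 7 or more libraries (553) and genera by the same filter (112 of 432) were tested with edgeR 4.0.16 (R 4.3.3), TMM scaling and the quasi-likelihood F-test, with Benjamini-Hochberg adjustment over all rows tested and calls under 0.05. Exposure contrasts used 4 group means, and run contrasts 8 means of group by run, averaged over the sexes. A fold is a ratio of mean percents. Against a set without reads, the mean percent is divided by 3 reads over the pooled reads of the set. Pooling weights libraries by depth and the mean does not, so such a fold is not a strict lower bound. Shares have 95% exact Clopper-Pearson intervals, which cover counting error only, since PCR reads without molecular identifiers are not independent molecules.

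The members, lists and tests were chosen with earlier results of these data known. Variants named were the 12 with the highest mean percent, the 5 highest in each run, and up to 6 called members per contrast and direction; genera named were those called or of highest mean in the lists and the 4 highest and 4 lowest in rank correlation with the genus. Alternatives were DESeq2 1.42.0, limma 3.58.1 on log2 centred log-ratios (0.5 added to each count) without and with the run as random block, other scalings and filters, parts of the libraries, each library left out, and, added after seeing the data, the 9 libraries of low richness left out. The fitting steps were tested on simulated data with known changes in PAE males only. The simulation held no label runs and no libraries of low richness, so it cannot show how the tests behave with these.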

Additional observations from a re-analysis of the deposited data

Results flagged for a closer look

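Within groups of 7 to 10 libraries, the highest library stood far from all the others (Dixon's criterion at 95%) in 33 of 69 combinations of group and named variant or genus share. Chance flags about 1 in 20, and variants that are absent from most libraries of a group are flagged easily.

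In PAE males, library 25 stood alone for NK3 (1.0% of reads), NK6 (0.718%) and NK10 (0.917%). Library 16 did so for NK9 (0.997%), NK20 (1.09%) and NK38 (0.379%), library 18 for NK16 (2.89%) and NK18 (0.0749%), library 19 for NK8 (3.36%), NK25 (0.676%) and NK29 (0.430%), and library 24 for NK4 (0.0360%).

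In control females, library 34 stood alone for NK2 (3.22%), NK4 (3.16%), NK5 (3.34%) and NK24 (2.88%), and library 30 for NK3 (6.31%) and NK6 (4.24%). Library 9 did so for NK8 (0.800%), NK18 (0.155%) and NK25 (0.486%), library 8 for NK10 (0.849%) and NK16 (1.51%), and library 4 for NK23 (0.212%).

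In PAE females, library 12 stood alone for NK1 (9.99%), NK2 (6.98%) and NK5 (0.300%), and library 13 for NK10 (2.18%), NK20 (0.694%) and NK38 (0.254%). Library 29 did so for NK9 (0.471%), library 14 for NK16 (0.228%) and library 26 for NK29 (0.210%). Control males, with 11 libraries, were not examined in this way.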

How the results depend on the processing

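Counts of called members depended on the processing and on which libraries entered. Each is followed in brackets by the percent of all variants called in that fit. In males, against 1 member called by the main edgeR test (12.1%), DESeq2 gave 4 (14.8%), TMMwsp scaling 2 (13.9%), limma on centred log-ratios 7 (17.2%), limma with the run as random block 0 (0.0%), and no filter 32 of 240 (8.86%). PAE libraries 11 to 19 alone gave 0 (0.0%), 20 to 29 alone 7 (22.6%), controls 1 to 10 alone 0 (1.22%), controls 30 to 37 alone 10 (29%), and the fit without the 9 libraries of low richness 0 (0.19%). In females, against 4 (12.3%), DESeq2 gave 8 (11.4%), limma 0 without and with the block (1.63% and 0.0%), no filter 12 of 240 (2.78%), the PAE runs alone 0 each (0.0% and 2.99%), and controls 1 to 10 and 30 to 37 alone 1 and 2 (1.42% and 9.74%). The count was 0 without the 9 libraries (0.0%), with a filter of 10 reads in 18 libraries (0.647%) and in females alone (1.37%). For the difference between the sexes, against 0 (0.0%), DESeq2 gave 7 (6.33%), TMMwsp scaling 2 (2.35%) and no filter 5 of 240 (0.181%). Between the PAE runs, against 7 (22.4%), DESeq2 gave 13 (34%), the stricter filter 1 of 13 (14.2%) and females alone 0 (3.98%). Between the control runs, against 7 (29.5%), DESeq2 gave 19 (42.1%), no filter 14 of 240 (4.44%), males alone 11 (28.9%), females alone 1 (9.22%) and the stricter filter 1 of 13 (21.4%). Leaving out 1 library gave 1 to 3 members in males, 1 to 5 in females, 0 for the difference between the sexes, 4 to 19 between the PAE runs and 2 to 10 between the control runs. The libraries that moved a count by over 1.5 times were PAE males 18 and 25 and control males 7 and 33 in males, control female 34 in females and between the control runs, and PAE males 18 and 25 and PAE females 26 and 28 between the PAE runs.

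For the genus, limma on centred log-ratios passed in males (-3.51) and between the PAE runs (-4.37), and so did the fit without a filter there (-2.12). Without 1 library the log2 difference ran from -1.87 to -1.44 in males, from -0.89 to 0.093 in females and from -3.94 to -1.69 between the PAE runs. The female difference turned to 0.52 with controls 1 to 10 alone, and the difference between the sexes to 0.20 with controls 30 to 37 alone. The cause of these changes was not tested.

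As a percent of Lachnospiraceae reads, the genus made 50.9% in control males, 25% in PAE males, 44.9% in control females and 35.5% in PAE females, and 45.9%, 49.3%, 12.6% and 51.9% in the runs from 1 to 10 to 30 to 37. Of the 19 calls named in the text, 17 kept direction and call with DESeq2, 17 with TMMwsp scaling, 19 with library totals, 8 with limma on centred log-ratios and 7 without the 9 libraries. No named call reversed in any fit run. The small number of genus reads (62 to 181) limits the 7 lowest PAE libraries, although library 28 among them had 1255114 reads in all. No paired analysis was possible because the groups share no replicate numbers.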
